A study of Arabidopsis thaliana with 8 samples.

Results

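QQS (locus AT3G30720) was followed over 4 genotypes of Arabidopsis thaliana inflorescences, as 1 gene of 13286 with a locus in the annotation used, and 1 probe set of the 22746 tested on the array. The gene was selected on its measured levels in these same arrays, so its values are a description and carry no test. Its probe set was the one that the annotation pairs with this locus. The genotypes were the double mutant ddm1-2 rdr6-15, the single mutants ddm1-2 and rdr6-15, and Col-0, the wild type, with 2 biological replicates each. Each of the 8 Affymetrix ATH1 arrays received 6 ug of total RNA from pooled inflorescence tissue (n = 3 per the labels), flower stages 9 to 12, from plants grown in long days without further treatment. All groups are whole tissue, in which a change in cell make-up and a change in RNA per cell cannot be told apart.

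QQS, short for Qua-Quine Starch, is an orphan gene: it encodes a small protein without recognised relatives outside its species. It is known as a modulator of leaf starch content and of the partition between carbon and nitrogen stores, in part through the transcription factor subunit NF-YC4. Its expression is known to vary with DNA methylation at its locus. DDM1 is a chromatin remodeller needed to keep DNA methylation on transposons and repeats, and RDR6 copies RNA into the double-stranded precursors of secondary small interfering RNAs.

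Signals are log2 values per probe set, so that 1 unit is a doubling. The level without signal, called control level here, was 3.56, the highest mean among 27 control probe sets for Bacillus transcripts. Pairs among 7 of the arrays correlated at 0.944 or more over the probe sets, whereas rdr6-15 replicate 1 correlated with them at 0.852 to 0.879. The counts set beside QQS that use this array are also given without it, an alternative added after the data were seen. The annotation used here pairs neither DDM1 nor RDR6 with a probe set, so the mutated genes themselves were not checked. The same held for all 8 flower identity genes listed to check the tissue. Pollen genes listed as markers were detected and are described further on.

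QQS was higher in every mutant genotype than in Col-0, and it was lower in the double mutant than in either single mutant. The signal was 5.83 and 5.87 in ddm1-2 rdr6-15 and 7.22 and 7.52 in ddm1-2. It was 7.08 and 6.79 in rdr6-15, against 3.81 and 4.25 in Col-0. No array of one genotype overlapped with those of another. Both Col-0 arrays lay above control level, by 0.25 and 0.69 log2 units. The wild-type signal was thus close to background, and replicate 1 was barely above it.

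**Figure D1:**
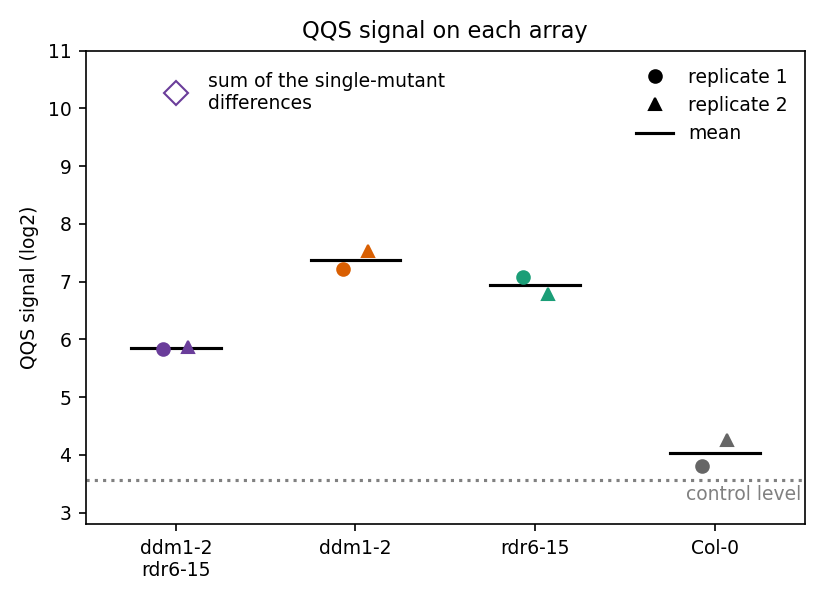
QQS signal (log2, vertical axis) on each array by genotype, with circles for replicate 1, triangles for replicate 2 and bars for means. The dotted line is control level (3.56) and the open diamond is the level of 10.28 that the double mutant would have if the differences of both single mutants added up. The observed double mutant arrays, at 5.83 and 5.87, lie between those of the single mutants and those of Col-0.

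Means were 5.85 ± 0.033 in the double mutant, 7.37 ± 0.22 in ddm1-2, 6.93 ± 0.21 in rdr6-15 and 4.03 ± 0.31 in Col-0 (SD, n = 2 each). In decreasing order the genotypes were ddm1-2, rdr6-15, the double mutant and Col-0. The first step, ddm1-2 over rdr6-15, was 0.44 (SE 0.22). There the nearest arrays were 0.14 apart, less than the 0.30 between the ddm1-2 replicates, so the order of these neighbours is uncertain. The nearest arrays of rdr6-15 and the double mutant were 0.91 apart, and those of the double mutant and Col-0 were 1.58 apart. Both distances exceeded the largest gap between replicates, 0.44 in Col-0.

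Loss of DDM1 with RDR6 present went with a QQS level 3.34 log2 units higher in ddm1-2 than in Col-0 (SE 0.22, 10.1-fold). Of the 22746 probe sets, 54 had a larger positive difference. Loss of RDR6 with DDM1 present went with a level 2.90 units higher in rdr6-15 than in Col-0 (SE 0.22, 7.49-fold). Both comparisons use the same Col-0 arrays. The double mutant was 1.82 units above Col-0 (SE 0.22, 3.53-fold).

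A larger difference between rdr6-15 and Col-0 than that of QQS was seen for 7 probe sets. Without rdr6-15 replicate 1 it was seen for 1, a probe set with no gene listed. The rdr6-15 replicates of each of the 7 lay 3.86 to 6.97 log2 units apart, whereas those of QQS lay 0.29 apart. Without rdr6-15 replicate 1, the array that stands apart, the QQS difference was 2.76, and without replicate 2 it was 3.05. The QQS level in rdr6-15 was thus about the same on both arrays.

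Where one gene was already mutated, the further mutation went with less QQS. The double mutant was 1.08 log2 units below rdr6-15 (SE 0.22) and 1.52 below ddm1-2 (SE 0.22). If the differences of both single mutants had added up, the double mutant would have been at 10.28, which is 4.43 units above its observed mean (interaction -4.43, SE 0.31). Of all probe sets, 14 had a more negative interaction. Among them, 13 were annotated pseudogenes with probe sets shared between related sequences, and 1 was the coding gene AT5G03350. Without rdr6-15 replicate 1, the QQS interaction was -4.28 and 10 probe sets were more negative, 9 of them pseudogenes, while that of AT5G03350 was -2.55.

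The negative interaction of the 13 pseudogenes had another form than that of QQS. Their rdr6-15 means differed from Col-0 by -0.06 to 0.73, and all 13 were higher in the double mutant than in rdr6-15. In QQS, by contrast, rdr6-15 was 2.90 above Col-0 and the double mutant was below rdr6-15. AT5G03350 had 5.79 and 6.06 in the double mutant, 6.09 and 6.85 in ddm1-2, 10.35 and 6.16 in rdr6-15 and 4.18 and 4.13 in Col-0. Its interaction of -4.64 therefore contains a gap of several units between its rdr6-15 replicates.

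The ddm1-2 minus Col-0 difference can be set beside the difference between the double mutant and rdr6-15, which shares no array with it. In the first, 92 probe sets were called higher by limma at an adjusted p under 0.05 (0.404% of all probe sets). QQS was chosen on this difference, so it is set beside the other 91 as a description. In the second, 86 of the 91 lay above 0 and 5 below, while QQS was at -1.08. The median of all probe sets in the second was -0.014. Without rdr6-15 replicate 1, 87 lay above 0 and 4 below, and QQS was at -0.94. The lowest of the 91 with all arrays was the coding gene AT1G06000, at -0.42. The others were the coding gene AT4G29200 and the annotated pseudogenes AT3G15310, AT3G30610 and AT2G13890, at -0.27, -0.0046, -0.10 and -0.29. Those 4 had means of 2.48 to 2.60 in the double mutant and 2.58 to 2.82 in rdr6-15, all at control level. AT1G06000 was thus the 1 of the 5 with signal above control level in all genotypes.

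**Figure D2:**
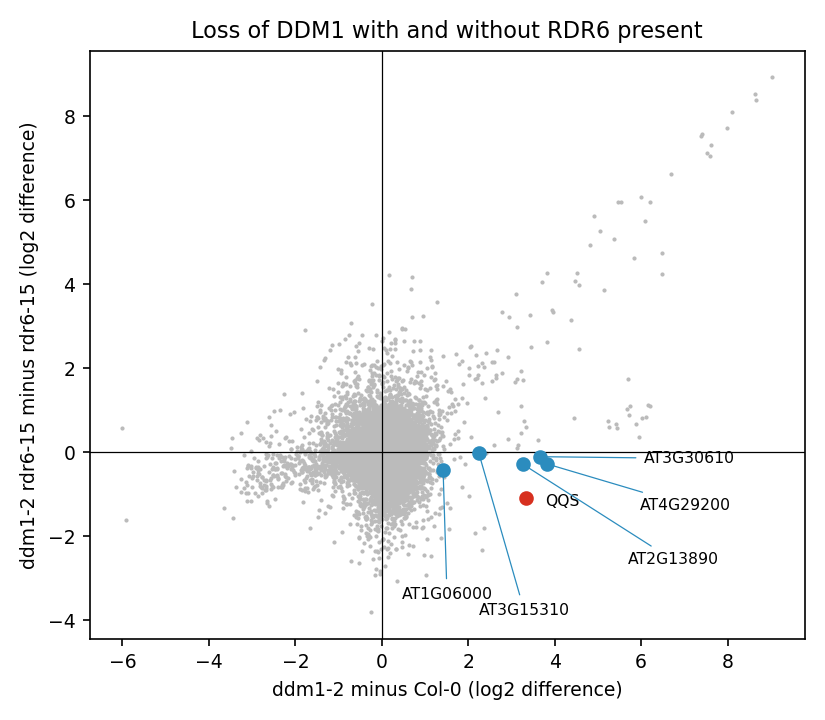
Each grey point is 1 of 22746 probe sets, with the ddm1-2 minus Col-0 log2 difference on the horizontal axis and the ddm1-2 rdr6-15 minus rdr6-15 log2 difference on the vertical axis. Blue points are the 5 probe sets other than QQS called higher in ddm1-2 that lay below 0 on the vertical axis. QQS, in red, is at 3.34 and -1.08. Of the other 91 probe sets called higher in ddm1-2, 86 lie above 0 on the vertical axis, where the median of all probe sets is -0.014.

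The order seen for QQS, with all arrays of both single mutants above those of the double mutant and these above Col-0, was found for 149 of 22746 probe sets (0.655%). Steps of at least 0.5 log2 units, a size chosen with the QQS values known, were present in 3 of them: QQS, AT5G03350 and matK, the plastid maturase gene. In matK the replicates of rdr6-15 were at 7.81 and 5.63. Without rdr6-15 replicate 1, 260 probe sets had this order (1.14%), and QQS was the 1 left with such steps.

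The genes whose pattern was most like QQS were sought among 1157 probe sets with 1 gene and genotype means at least 1 log2 unit apart, by Pearson's r over the 8 arrays. The arrays share tissue differences and QQS itself, so r is descriptive. The 8 most alike had r from 0.89 to 0.96. They were AT1G06000, AT4G17560, AT5G02240, AT4G17245, AT2G42320, AT2G22230 and the serine carboxypeptidase-like genes SCPL34 and scpl29. Their genotype means spanned 1.01 to 1.42 log2 units, against 3.34 for QQS.

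AT1G06000 was the closest, with r = 0.96. It had 5.09 and 5.12 in the double mutant, 5.92 and 6.12 in ddm1-2, 5.61 and 5.44 in rdr6-15 and 4.57 and 4.62 in Col-0. Its genotypes follow the same order as those of QQS without overlap, over a span of 1.42. For scpl29 the order differed: the mean was 6.84 in the double mutant, above its 6.69 in rdr6-15. SCPL34 had 5.25 in the double mutant, 6.07 in ddm1-2, 5.62 in rdr6-15 and 4.98 in Col-0. Membership of the 8 depended on the measure: with r over the 4 genotype means 2 of the 8 were kept, and 2 were kept without rdr6-15 replicate 1. AT2G42320 was on all 3 lists.

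The 4 genes most opposite to QQS were AT1G62760, AT1G13990, AT1G05340 and AT2G46300, with r from -0.97 to -0.95. AT1G05340 had the widest span of the 4, with means of 4.89 in the double mutant, 4.14 in ddm1-2, 4.43 in rdr6-15 and 7.39 in Col-0. Of these 4, 1 was kept with r over the genotype means and 1 without rdr6-15 replicate 1. The interaction of AT1G05340, 3.71, was of the other sign than that of QQS. AT1G62760 had 3.24 and 3.32 in the double mutant, 2.67 and 2.69 in ddm1-2, 3.19 and 3.03 in rdr6-15 and 4.28 and 4.12 in Col-0. Its signal was at control level in all mutant genotypes, so its differences from Col-0 are known only as at least 0.65, the distance of its Col-0 mean from control level. AT2G46300 had means of 3.37 in the double mutant, 3.10 in ddm1-2, 3.32 in rdr6-15 and 4.65 in Col-0. Its mutant means were at control level as well, so their order cannot be read.

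**Figure D3:**
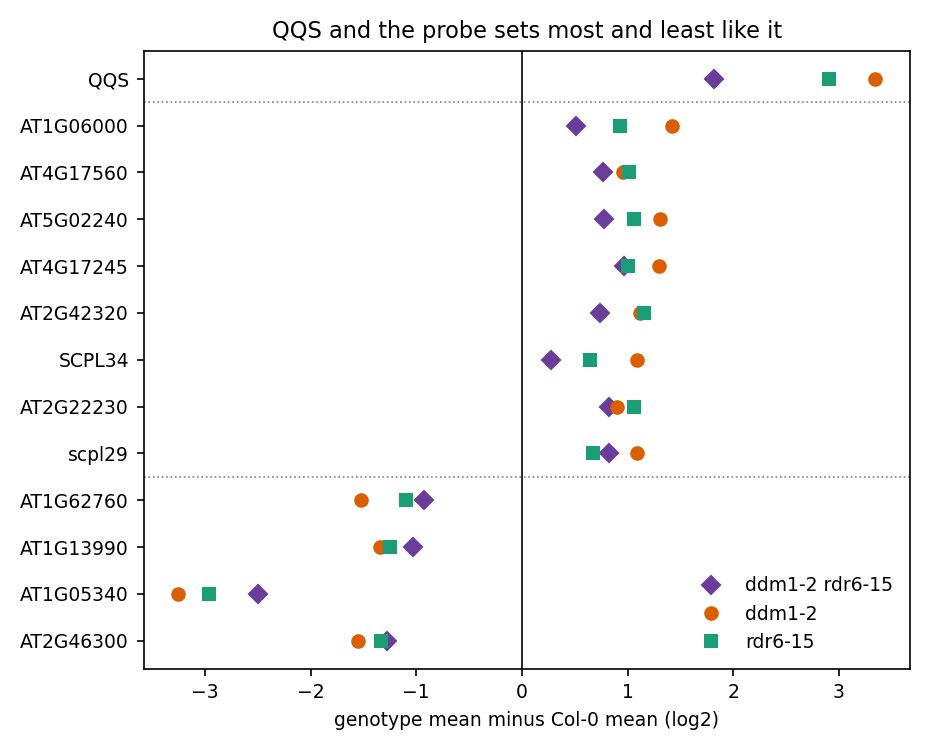
Difference of each mutant genotype's mean from the Col-0 mean (log2, horizontal axis) for QQS, the 8 probe sets most like it and the 4 most opposite, separated by dotted lines. Diamonds are ddm1-2 rdr6-15, circles ddm1-2 and squares rdr6-15. QQS lies at 1.82 to 3.34, while the 8 below it lie between 0.28 and 1.42.

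QQS lies among pseudogenes. Of the 25 annotated genes before it and the 25 after it in the TAIR10.1 gene order, 40 are pseudogenes, 3 transcribed pseudogenes, 4 protein coding and 3 long noncoding RNAs. Protein-coding genes thus made up 8% of this window, beside 71.9% of all annotated genes. The annotation paired 5 of the 50 neighbours with a probe set. Genome positions are not given, as no build is named for the arrays.

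The nearest neighbours with probe sets of their own gave little signal. None of the 6 named by position, 3 before and 3 after QQS, was called in any of the 5 comparisons by limma (0.576% of all probe sets were called for ddm1-2 against Col-0, either direction). At an unadjusted p under 0.05 there were 2, AT3G30640 and AT3G30710, for ddm1-2 against Col-0 (9.13% of all probe sets) and for the double mutant against ddm1-2 (2.71%), and 0 in the other comparisons.

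AT3G30710, a pseudogene 12 genes before QQS, had 3.55 and 3.17 in the double mutant, 4.13 and 4.16 in ddm1-2, 3.93 and 3.27 in rdr6-15 and 3.37 and 2.92 in Col-0. Its means had the same order as those of QQS, but its arrays of the double mutant, rdr6-15 and Col-0 overlapped. Its means in the double mutant (3.36) and Col-0 (3.15) were at control level, so their order cannot be read. Its ddm1-2 mean was 0.59 log2 units above control level, while Col-0 was at control level (adjusted p = 0.318 for their difference). Its rdr6-15 mean, 3.60, was barely above control level.

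The other 5 neighbours were at control level in every genotype: AT3G30640 and AT3G30650 before QQS, and AT3G30730, AT3G30740 and AT3G30750 after it. AT3G30730, a coding gene 4 genes after QQS, had means of 2.16 in the double mutant, 2.13 in ddm1-2, 2.18 in rdr6-15 and 2.30 in Col-0. A change that stayed below control level could not be seen in these genes. AT3G30670, a pseudogene 24 genes before QQS, was added after its values were seen and has a probe set shared with related sequences. It had 8.18 and 8.47 in the double mutant, 8.09 and 8.12 in ddm1-2, 2.44 and 2.30 in rdr6-15 and 2.49 and 2.66 in Col-0. It was high in both genotypes with ddm1-2 and at control level in rdr6-15 and Col-0, unlike QQS. Taking control level for the dim genotypes, it rose by at least 4.55 in ddm1-2 against Col-0 (limma adjusted p = 2.7e-05) and by at least 4.77 in the double mutant against rdr6-15 (adjusted p = 2.12e-05).

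**Figure D4:**
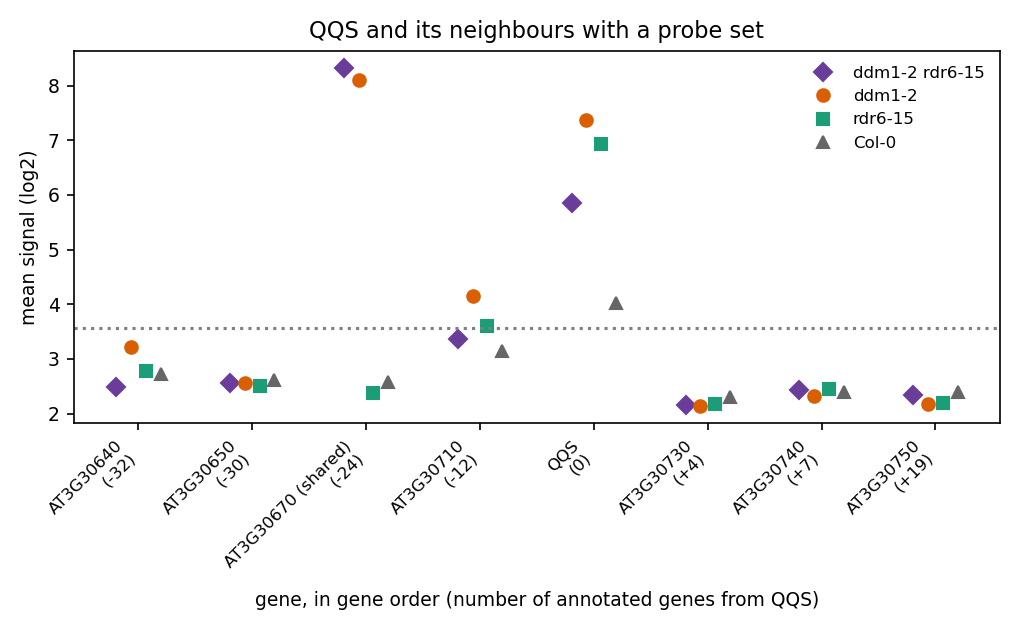
Mean signal (log2, vertical axis, n = 2 arrays per point) of QQS and 7 neighbours with a probe set, in gene order, with the number of annotated genes from QQS in brackets. The dotted line is control level, and levels are to be compared within a gene. QQS is above it in all genotypes, AT3G30670 in both genotypes with ddm1-2, AT3G30710 in ddm1-2 and rdr6-15, and the other 5 in none.

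Genes around QQS function and around its silencing were looked up in 6 lists, for starch synthesis, starch breakdown, NF-YC and SnRK1 subunits, DNA methylation, small RNAs and genes silenced by methylation. The annotation matched 10 of 97 loci, with 12 probe sets, and NF-YC4, MET1 and KIN10 were not among them. It matched 3 of 17 loci for starch synthesis, 2 of 16 for starch breakdown and 3 of 11 for NF-YC and SnRK1. For DNA methylation it matched 1 of 19 and for small RNAs 1 of 22. None of the genes silenced by methylation was matched, so that list was not measured. None of the 12 probe sets was called in any of the 5 comparisons by limma. At an unadjusted p under 0.05 there were 2 for ddm1-2 against Col-0, 1 each for rdr6-15 and for the double mutant against Col-0, and 0 for the double mutant against either single mutant. The shares of all probe sets under that p were 9.13% for ddm1-2, 9.98% for rdr6-15 and 7.79% for the double mutant, each against Col-0, and 2.71% and 4.84% for the double mutant against ddm1-2 and against rdr6-15. Over all probe sets 0.00879% were called for rdr6-15 against Col-0, 0.312% for the double mutant against Col-0, 0.0572% for it against ddm1-2 and 0.163% for it against rdr6-15. The median difference of the 12 between ddm1-2 and Col-0 was 0.23, beside -0.01 over all probe sets.

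Among starch genes, DPE1, the plastid disproportionating enzyme that works on maltotriose, came closest to a call. It had 3.36 and 3.58 in the double mutant, 3.47 and 3.24 in ddm1-2, 3.44 and 3.52 in rdr6-15 and 2.95 and 2.72 in Col-0. All mutant arrays were above those of Col-0, but every mean was at control level (adjusted p = 0.362 for the double mutant, 0.428 for ddm1-2 and 0.383 for rdr6-15, each against Col-0). PWD, which phosphorylates starch for its breakdown, had means of 5.20 in the double mutant, 5.45 in ddm1-2, 5.59 in rdr6-15 and 4.87 in Col-0. SBE2.2, a starch branching enzyme, had 5.82 in the double mutant, 6.14 in ddm1-2, 6.23 in rdr6-15 and 5.69 in Col-0. Its rdr6-15 replicates were at 6.66 and 5.80, and those of PWD at 6.24 and 4.94, so the rdr6-15 means rest on unlike arrays. APL3 and APL4, large subunits of ADP-glucose pyrophosphorylase, gave little signal: APL4 was at control level in every genotype, and APL3 had a mean of 3.77 in ddm1-2 and was at control level in the others.

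AT4G16360, a beta subunit of the energy-sensing kinase SnRK1, had the smallest p of its list for rdr6-15 against Col-0. Its signal was 6.49 and 7.08 in the double mutant, a mean of 7.09 in ddm1-2, 4.73 and 6.77 in rdr6-15 and 6.70 and 6.91 in Col-0. The rdr6-15 difference of -1.06 (adjusted p = 0.585) rests on 1 low array, rdr6-15 replicate 1. AKINBETA1, another beta subunit, had 8.64 and 8.41 in the double mutant, 7.99 and 7.97 in ddm1-2, 6.91 and 8.60 in rdr6-15 and 8.56 and 8.55 in Col-0. Its differences from Col-0 were -0.57 in ddm1-2 (adjusted p = 0.80) and -0.80 in rdr6-15 (adjusted p = 0.608). AGO7, the Argonaute that starts RDR6-dependent trans-acting siRNA formation from the TAS3 transcript, had means of 3.91 in the double mutant, 3.99 in ddm1-2, 3.74 in rdr6-15 and 3.41 in Col-0. DME, a DNA glycosylase that removes methylated cytosine, had 3 probe sets, whose ddm1-2 minus Col-0 differences were -0.25 to 0.18. The probe set at 0.18 was above control level in every genotype, and the others were at control level in every genotype. The smallest adjusted p of AGO7 was 0.522, for ddm1-2 against Col-0. That of DME was 0.521, for rdr6-15 against Col-0, from a probe set at control level.

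Pollen markers had lower medians in the mutant genotypes than in Col-0, where QQS was lowest, though none of them passed the test. Of 18 listed loci 10 were matched. Their median signal was 4.06 and 2.83 in the double mutant, 4.03 and 3.05 in ddm1-2 and 2.95 and 5.34 in rdr6-15, against 5.80 and 6.74 in Col-0. The sum of the 10 log2 signals was 43.0 and 30.1 in the double mutant, 42.6 and 35.1 in ddm1-2 and 30.8 and 52.4 in rdr6-15, against 58.1 and 64.4 in Col-0. On the single arrays 3 and 9 of the 10 were at or below control level in the double mutant, 3 and 7 in ddm1-2, 8 and 2 in rdr6-15, and 2 and 1 in Col-0.

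None of the 10 was called in any comparison, although 9 had an unadjusted p under 0.05 for ddm1-2 against Col-0, 5 for rdr6-15 and 8 for the double mutant against Col-0, comparisons in which 9.13%, 9.98% and 7.79% of all probe sets did. Between the double mutant and the single mutants their median differences were -0.19 against ddm1-2 and -0.52 against rdr6-15, of the same sign as those of QQS. AT2G15880, a pollen extensin-like gene, had the smallest adjusted p (0.19), with means of 3.13 in ddm1-2 and 5.99 in Col-0. MGH3, the sperm-cell histone, had means of 3.00 in the double mutant, 2.82 in ddm1-2, 2.84 in rdr6-15 and 3.38 in Col-0, all at control level. A9 (AT5G07230), the 1 matched tapetum marker of 8, had 3.64 and 4.02 in the double mutant, 3.39 and 4.21 in ddm1-2, 2.62 and 4.43 in rdr6-15 and 3.31 and 2.60 in Col-0. None of the 10 green tissue markers was matched. The part of tissue make-up in the QQS differences was not tested.

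Between replicates of a genotype the markers differed too. Between the rdr6-15 replicates the pollen median differed by 2.39 log2 units and the median of 69 plastid-encoded probe sets by 1.80, and QQS differed by 0.29. Between replicates of the double mutant the pollen median differed by 1.24 and QQS by 0.046. In ddm1-2 the pollen median differed by 0.99 and QQS by 0.30, and in Col-0 by 0.95 and 0.44. The array with more QQS had the higher pollen median in Col-0 and the lower one in the mutant genotypes. It had the higher plastid median in rdr6-15 and Col-0, and the lower one in the double mutant and ddm1-2. The plastid-encoded median was 5.75 and 5.40 in the double mutant, 6.01 and 5.98 in ddm1-2, 7.43 and 5.63 in rdr6-15 and 5.31 and 5.42 in Col-0. This class was added with the QQS values known.

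**Figure D5:**
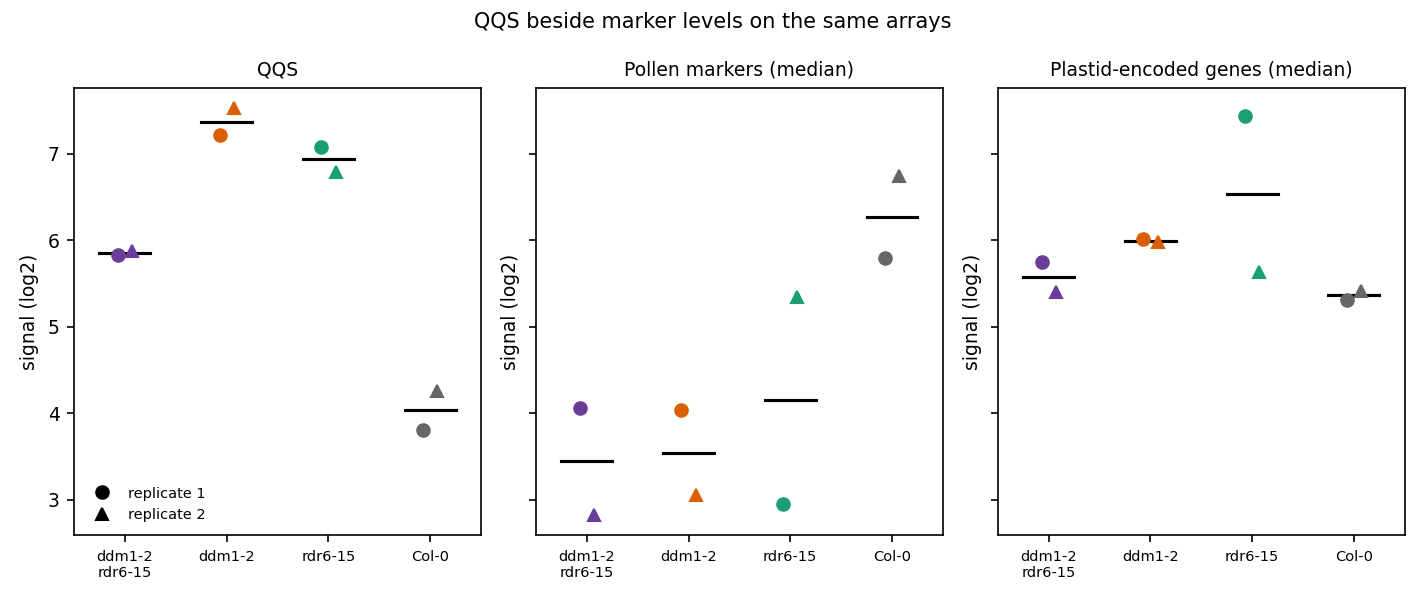
Signal (log2, vertical axis) per array by genotype for QQS, for the median of 10 pollen markers and for the median of 69 plastid-encoded probe sets. Circles are replicate 1, triangles replicate 2 and bars means. Replicates of QQS lie 0.046 to 0.44 apart, while the rdr6-15 replicates differ by 2.39 in the pollen median and 1.80 in the plastid median.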

How the data were processed

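RNA of 8 samples was measured on ATH1 arrays. Deposited were log2 signals, 1 per probe set, that the authors made with RMA, per the submitters' processing notes, without a version or settings. Of these, 22746 probe sets were tested after removal of 64 controls, with no further scaling (array medians 3.73 to 3.81). Genes came from the platform annotation and the RefSeq table of TAIR10.1, which gave a locus for 13436 probe sets. Of the 22810 probe sets with the controls included, the annotation listed 1 gene for 13513, several for 503 and none for 8794.

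All 8 arrays entered 1 fit of genotype means in limma (version 3.58.1, R 4.3.3, lmFit and eBayes, 4 residual and 2.82 prior degrees of freedom), two-sided, with Benjamini-Hochberg adjustment over all 22746 and a threshold of 0.05. The SE is limma's moderated one. The procedure was tested on simulated data. The number of arrays limits the precision.

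Genes named were QQS, the 8 probe sets most like and 4 most opposite to it by Pearson's r, 3 neighbours on each side, and of each list the called members or the one with the smallest p. Other genes named were chosen after their values were seen. QQS and the lists were chosen with earlier results of these data known. The labels call the replicates biological and say nothing more of how they were kept apart.

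Alternatives were quantile normalization, median centring, means of linear signals, a replicate block, only the genotypes compared, a trended and robust prior, dim probe sets left out, and each array left out in turn. Positions were used only as the gene order of TAIR10.1, and sequences were not used here.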

Additional observations from a re-analysis of the deposited data

Results flagged for a closer look

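QQS differed in its response to the loss of DDM1 with the RDR6 genotype. Both arrays of the double mutant lay below both of rdr6-15 (5.83 and 5.87 against 7.08 and 6.79), while both arrays of ddm1-2 lay above both of Col-0 (7.22 and 7.52 against 3.81 and 4.25). The responses thus ran in opposite directions, with an interaction of -4.43 log2 units (SE 0.31). It was flagged for these opposite directions. In either background, the arrays with ddm1-2 did not overlap with those without it. How many of all probe sets share this lack of overlap was not counted. The difference was not tested here, since QQS was picked for this pattern.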

How the results depend on the processing

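The 6 QQS differences, the interaction among them, kept their sign under every alternative run. Quantile normalization, median centring, means of linear signals and the replicate block moved each by less than the residual SD of 0.22. With 1 array left out, QQS differed between ddm1-2 and Col-0 by 3.12 to 3.56, between rdr6-15 and Col-0 by 2.68 to 3.13 and between the double mutant and Col-0 by 1.60 to 2.04. The double mutant differed from ddm1-2 by -1.67 to -1.37 and from rdr6-15 by -1.23 to -0.94, and the interaction was -4.65 to -4.21. Fewer arrays leave a lone array that is assumed to vary like the others. The 12 pathway probe sets had 0 calls in each setting except without rdr6-15 replicate 2, which leaves the array that stands apart alone: the range over arrays left out was 0 to 4 for rdr6-15 against Col-0 and 0 to 4 for the double mutant against rdr6-15. Calls over all probe sets moved more. For ddm1-2 against Col-0 they were 131, with 90 to 1313 under other settings and 31 to 1084 with 1 array left out; for rdr6-15 against Col-0, 2, with 0 to 5 and 0 to 5414; for the double mutant against ddm1-2, 13, with 1 to 29 and 0 to 44; against rdr6-15, 37, with 17 to 51 and 26 to 4927; against Col-0, 71, with 39 to 705 and 22 to 884. The causes were not tested. The main fit did not pair arrays by replicate number. Deviations of same-numbered arrays correlated at -0.06 to 0.42 over 6 pairs of genotypes, 2 of them above 0.1. Same-numbered arrays of some genotypes thus deviated alike in part. With the replicate block the QQS differences were the same (3.34, 2.90, -1.52, -1.08 and 1.82, and -4.43 for the interaction), the pathway calls 0, and the calls over all probe sets 90, 0, 1, 29 and 39. The count of probe sets in the order of QQS without rdr6-15 replicate 1 (260, against 149) was an alternative chosen after seeing the data, as were the counts of probe sets without that array with a more negative interaction (10, against 14), with a larger rdr6-15 difference (1, against 7) and, among those called higher in ddm1-2, below 0 in the double mutant minus rdr6-15 (4, against 5).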
